A study of Mus musculus with 4 samples.

Results

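Glutamate receptors and their auxiliary subunits were followed as 36 genes, chosen by name and found by their symbols among the 24100 genes of the deposited tables. They fall into 4 AMPA, 5 kainate, 7 NMDA, 1 delta and 7 metabotropic receptor genes and 12 genes of auxiliary subunits. The samples were prefrontal cortex of untreated male Crh-IRES-Cre mice described as adult, with no age stated. In this line Cre is made from the Crh locus, and the ribosomes captured carry EGFP. The cells marked are thus taken to be among those in which that locus was active at some time. The groups were 1 Input library, RNA of the homogenate, and 3 immunopurified (IP) libraries, RNA bound to the EGFP-tagged ribosomes, each pooled from 5 males. The labels name neither the construct that carries the tag nor whether libraries came from separate animals, and the p-values therefore reflect only how these libraries vary, which may be technical variation.

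Ionotropic glutamate receptors are tetramers of subunits that open when glutamate binds: AMPA receptors carry most of the fast current at excitatory synapses, NMDA receptors pass calcium and need depolarization, and kainate receptors work on both sides of the synapse. Metabotropic receptors act through G proteins, group I mostly at the postsynaptic membrane, group II and III mostly at terminals or on glia. Auxiliary subunits travel with the channels and set how they are delivered to the synapse and how fast they close and recover. In cortex these genes are used by excitatory neurons, interneurons and, in part, glia, and interneurons are known to mix subunits differently from pyramidal cells.

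Levels below are CPM (the count of a gene relative to all counts of its library, scaled by library size and TMM factor). The SD is that among the IP libraries (n = 3), whereas the Input is a single library. The Input held 14474529 counts and the IP libraries 10031072 to 23548375, so that 1 count was worth 0.0600 CPM (Input) or 0.0436 to 0.107 CPM (IP). The 36 genes took 0.453% of all Input counts and 0.387%, 0.460% and 0.478% of those of IP 1, 2 and 3. Markers of the labelled cells were present in the captured RNA. Crh had an Input level of 1.32 CPM and levels of 501, 174 and 193 CPM in IP 1, 2 and 3. All 10 shared markers of GABAergic neurons had a higher level in each IP library than in the Input (log2 folds from 0.98 for Dlx6 to 4.22 for Dlx1), with a summed level of 3601 to 4635 CPM in IP against an Input sum of 797 CPM, and all 9 markers of Vip interneurons did so too (0.23 for Cck to 7.77 for Crh). Of 12 markers of excitatory neurons 9 had lower levels in each IP library than in the Input (log2 folds over the list from -2.11 for Nrgn to 0.43 for Camk2a). The Input sum of the list was 5509 CPM and the sums of IP 1, 2 and 3 were 3527, 6576 and 5301 CPM, most of it Camk2a, without which they were 2607 CPM and 938, 1600 and 1141 CPM. Of 10 astrocyte markers 8 were lower likewise (-2.09 for Gfap to 0.24 for Slc4a4), with an Input sum of 2802 CPM and IP sums of 1744, 3065 and 1918 CPM, or 680 CPM and 364, 608 and 372 CPM without Slc1a2, the most abundant of them. Of 8 oligodendrocyte markers 5 were lower and 1 higher in each IP library than in the Input (-2.32 for Mog to 1.004 for Mag). Of 6 markers of their precursors 4 were lower and 2 higher likewise (-2.68 for Sox10 to 2.95 for Cspg4). Endothelial markers were higher in each IP library for 7 of 8 (1.93 for Tek to 4.26 for Pecam1), with an Input sum of 31.4 CPM and IP sums of 124, 471 and 169 CPM. Of 8 microglial markers 7 were lower in each IP library than in the Input, with a median log2 fold of -2.20. In none of these 8 lists was a marker without counts in all 3 IP libraries. In bulk RNA, fewer cells of a type and less RNA per cell cannot be told apart. The IP libraries also hold ribosome-bound RNA and the Input RNA of the homogenate. In every fold given here, a difference in the cells captured therefore cannot be told apart from one in ribosome binding.

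Of the 36 genes, 34 passed the filter on low counts and were tested. Grin3b, an NMDA subunit that binds glycine, had 1 count in the Input and 0 in each IP library, and Grm6, the metabotropic receptor of retinal bipolar cells, had 0 counts in all 4. A count of 0 allows up to 0.180 CPM in the Input and up to 0.131, 0.321 and 0.259 CPM in IP 1, 2 and 3, for counting error only. Of the exon bases of Grin3b 32.1% are shared with Tmem259 on the other strand.

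None of the 34 tested genes differed between IP and Input by the quasi-likelihood test of edgeR at an adjusted p under 0.05, a threshold that 0.458% of all 14636 genes passed. At an unadjusted p under 0.05 there were 5, with Shisa9, Cacng5, Grin3a and Grin2b higher in IP and Gsg1l lower, against 4.43% of all genes, 3.20% on the higher and 1.23% on the lower side. DESeq2 called 2 of the 34, Shisa9 and Cacng5, where it called 1.38% of all genes, and limma-voom called 0. Levels in all 3 IP libraries exceeded the Input for 8 of the 34 (19.7% of all genes) and were under it for 5 (24.1% of all genes). The log2 fold lay between -1 and 1 for 24 of the 34, and the median was 0.17, beside 0.083 for all genes tested. The 95% interval of the fold stayed within 2-fold either way only for Gria2 and Gria3, so for the other 32 a 2-fold difference was not excluded by this test.

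**Figure D1:**
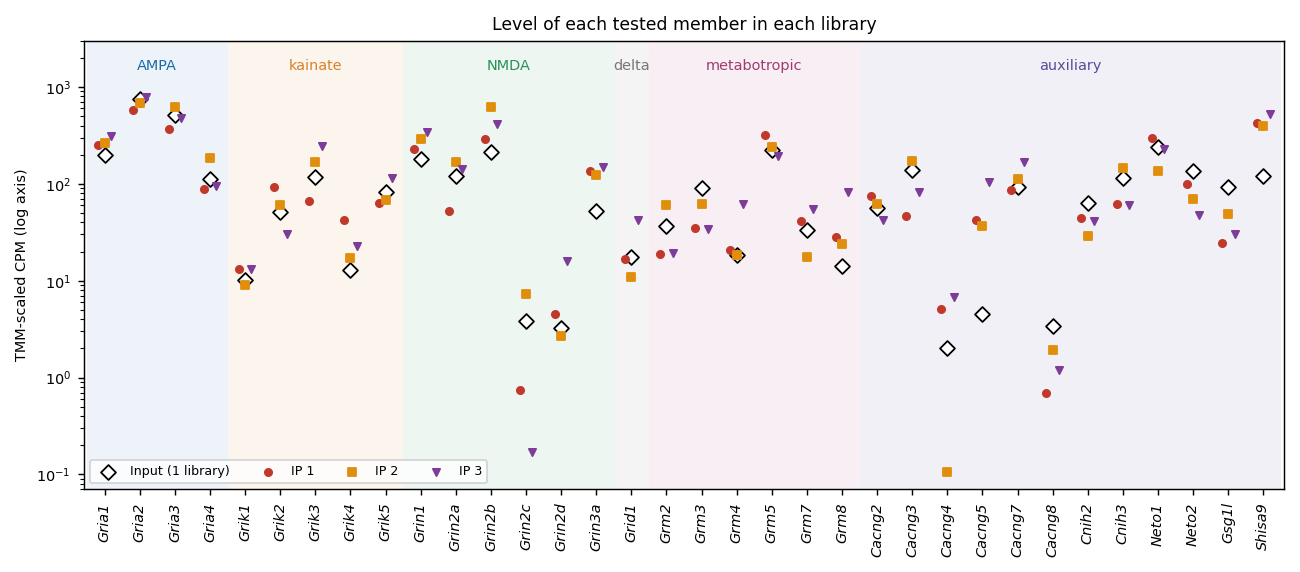
Levels of the 34 tested genes, in TMM-scaled CPM on a log axis, with 1 point per library (open diamonds, Input; circles, squares and triangles, IP 1, 2 and 3) and the genes grouped by class. Shisa9, Cacng5 and Grin3a have all 3 IP points well above the diamond, whereas those of Gria2, Gria3 and Gria4 lie on either side of it and those of Gria1 slightly above.

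The pore-forming AMPA subunit genes were the most evenly represented class. Gria2, whose edited product makes the channel impermeable to calcium, had an Input level of 749 CPM and levels of 584, 677 and 793 CPM in IP 1, 2 and 3 (log2 fold -0.13 ± 0.35, SE; 95% interval -0.86 to 0.60). Gria3 had an Input level of 515 CPM and IP levels of 371, 617 and 484 CPM (log2 fold -0.069 ± 0.38; -0.87 to 0.74). For both genes the IP values lay on either side of the Input. Gria4, a subunit known for fast gating in interneurons, had an Input level of 111 CPM and IP levels of 88.8, 187 and 95.2 CPM, with only IP 2 above the Input. Gria1 had an Input level of 201 CPM and IP levels of 251, 267 and 314 CPM, above the Input in all 3 (log2 fold 0.47 ± 0.42; edgeR unadjusted p = 0.282). The 4 genes summed to 1576 ± 246 CPM (SD, n = 3) in IP, beside an Input sum of 1575 CPM. It was lowest in IP 1 (1295 CPM) and higher in IP 2 and 3 (1747 and 1686 CPM), as was the summed level of the excitatory neuron markers given above, and the part of the marker signal in these levels was not tested.

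Ratios between subunits within a library do not depend on how libraries are scaled. Divided by exon length, Gria1 stood to Gria2 as 0.689 (Input) and 1.10, 1.01 and 1.02 (IP 1, 2 and 3). The IP values lay close together and all above the Input. The share of Gria1 among the AMPA genes was 21.95% (Input) and 31.7%, 24.6% and 31.1% (IP 1, 2 and 3), and that of Gria2 was 31.9% and 28.7%, 24.2% and 30.5%. With 1 library against 3, an exact permutation test cannot go below p = 0.25, so shares and ratios were not tested, here or below. The counts are per gene and carry no information on RNA editing or on the flip and flop exons.

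**Figure D2:**
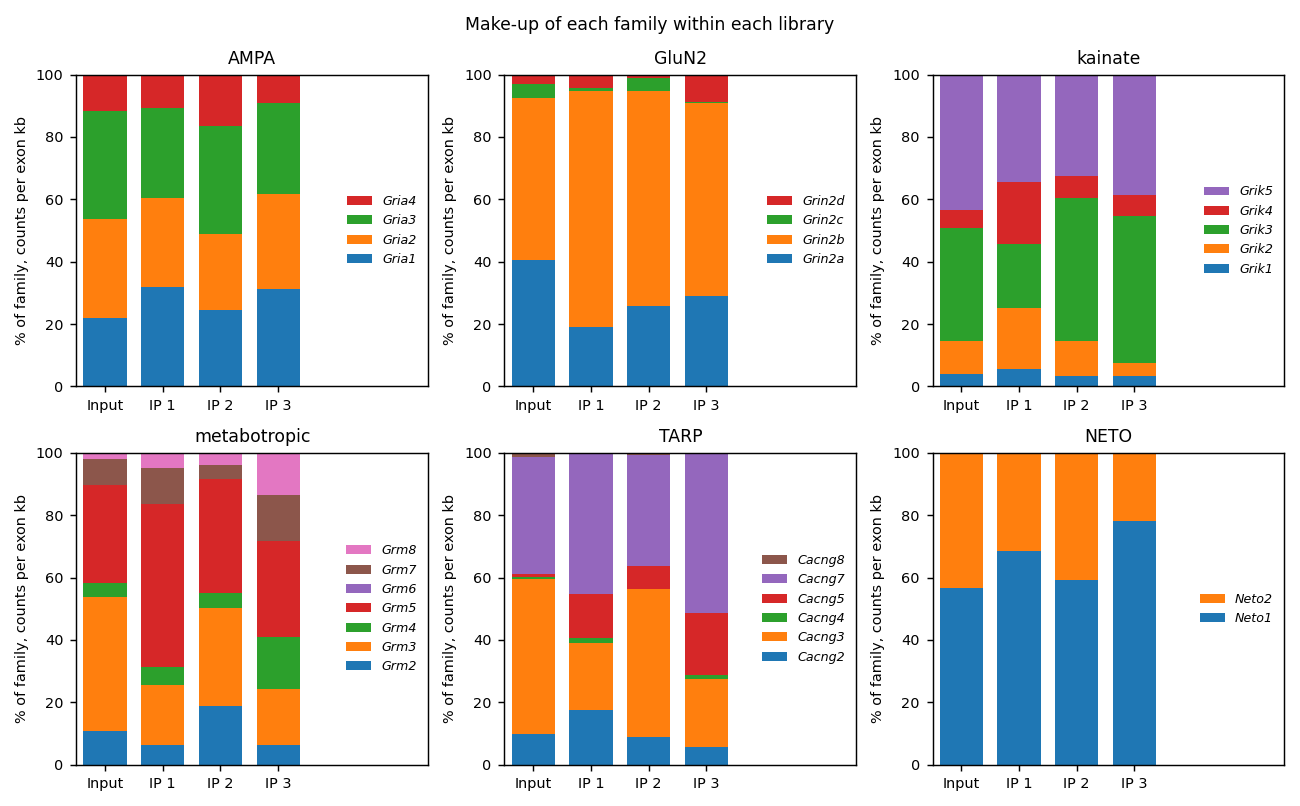
Share of each gene in the summed level of its family within each library, in percent of counts per kilobase of exon, for the Input and IP 1, 2 and 3. Grin2b widens and Grin2a narrows from the Input to each IP library, Cacng5 is a thin band in the Input (1.16%) and a broad one in IP (7.35% to 19.9%), and the kainate family differs as much between IP libraries as from the Input.

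Among the NMDA subunit genes, 2 of the 6 tested reached an unadjusted p under 0.05, both higher in IP (3.20% of all genes), and none passed the adjusted threshold. Grin2b, the GluN2 subunit that gives long-lasting currents (Entrez 14812, chromosome 6, 135713233 to 136173511 in GRCm38), had an Input level of 215 CPM and levels of 290, 619 and 419 CPM in IP 1, 2 and 3. All 3 IP libraries were above the Input, and they differed 2.13-fold among themselves. The log2 fold was 1.05 ± 0.46 (SE; edgeR unadjusted p = 0.0339, adjusted p = 0.996). Grin3a, a glycine-binding subunit that lowers calcium entry (Entrez 242443, chromosome 4, 49661611 to 49845744), had an Input level of 52.05 CPM and IP levels of 136, 124 and 150 CPM. Its IP libraries agreed closely, with a coefficient of variation of 9.49% beside a median of 51.5% over all genes tested, and all lay above the Input. The log2 fold was 1.39 ± 0.55 (edgeR unadjusted p = 0.0202, adjusted p = 0.834).

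Grin1, the subunit that every NMDA receptor needs, had an Input level of 181 CPM and IP levels of 230, 293 and 342 CPM, above the Input in all 3 (log2 fold 0.67 ± 0.44), and the antisense gene Grin1os covers 13.5% of its exon bases. Grin2a, the GluN2 subunit of mature fast-decaying receptors, had an Input level of 121 CPM and IP levels of 52.4, 168 and 142 CPM, so the groups overlapped. The ratio of Grin2b to Grin2a per exon length was 1.28 (Input) and 3.999, 2.66 and 2.14 (IP 1, 2 and 3). It was thus above the Input in each IP library, most so in IP 1, where Grin2a was lowest. Grin2b held 68.9% ± 6.86 (SD, n = 3) of the summed GluN2 genes in IP, where the Input share was 51.9%, and Grin2a 24.6% ± 5.16, where it was 40.6%. Grin3a per Grin1 was 0.228 (Input) and 0.469, 0.335 and 0.347 (IP 1, 2 and 3).

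The remaining GluN2 genes were rare. Grin2c, which cortical astrocytes are known to express, had an Input level of 3.84 CPM and IP levels of 0.741, 7.38 and 0.172 CPM. These IP levels rest on 17, 69 and 2 counts. IP 2, where it was high, had the highest summed astrocyte markers, but also the highest sums of excitatory, oligodendrocyte, precursor and endothelial markers. The part of any of these cells in the values of Grin2c was not tested. Grin2d, known from interneurons, had an Input level of 3.24 CPM and IP levels of 4.49, 2.67 and 16.04 CPM, with IP 3 far above the other libraries. The median log2 fold of the 6 NMDA genes was 0.86, and 0.34 without IP 3. The NMDA genes had an Input sum of 576 CPM and IP sums of 714, 1215 and 1069 CPM, with IP 1 lowest as for the AMPA genes.

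**Figure D3:**
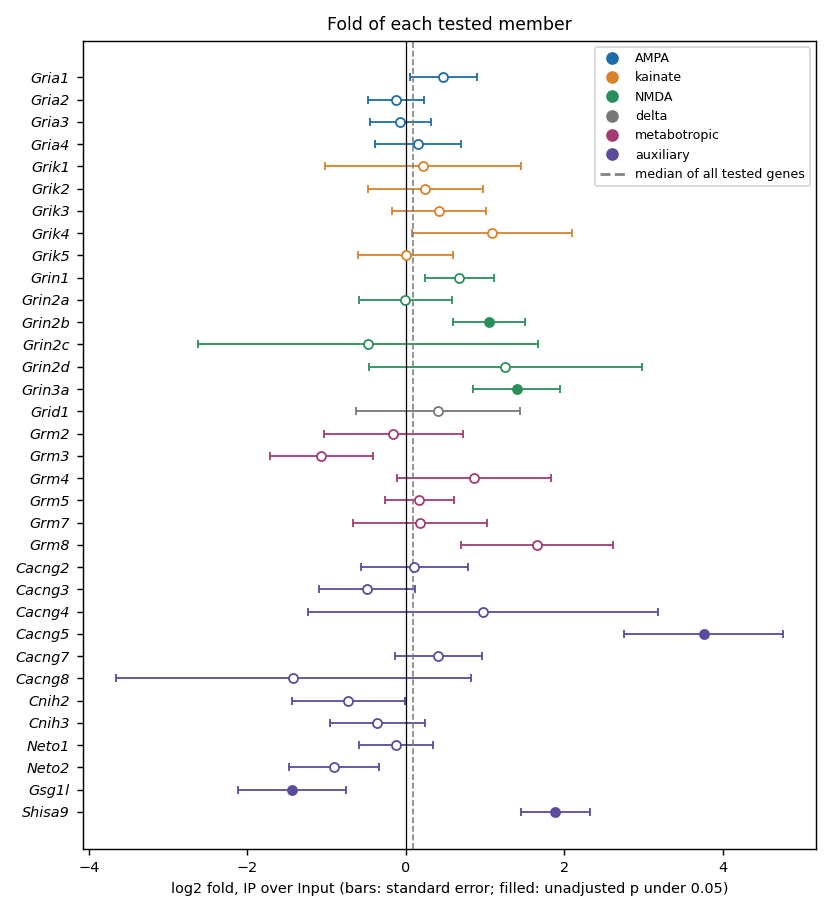
Fitted log2 fold of IP over Input for each of the 34 tested genes, with bars of 1 standard error, colours for the classes, and filled points at an unadjusted p under 0.05. The filled points are Grin2b, Grin3a, Cacng5 and Shisa9 on the higher side and Gsg1l on the lower side, and the dashed line is the median of all tested genes (0.083).

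No kainate receptor gene approached the threshold, and the IP libraries differed among themselves. Grik5, a subunit that binds glutamate with high affinity and is the most abundant of the class per exon length in the Input, had a level of 82.3 CPM there and IP levels of 64.0, 68.3 and 114 CPM (log2 fold -0.0033 ± 0.60, SE). Grik3, the most abundant of the class per exon length by the IP mean, though below Grik5 in IP 1, had an Input level of 119 CPM and IP levels of 66.0, 168 and 243 CPM. IP 1 lay below the Input and the other 2 above it, a 3.68-fold range. Grik2 had the opposite order, with an Input level of 51.5 CPM and levels of 92.7, 60.3 and 30.1 CPM in IP 1, 2 and 3. Grik1, a low-affinity subunit known from interneurons, had an Input level of 10.1 CPM and IP levels of 13.1, 8.98 and 13.3 CPM. Grik4 alone lay above the Input in all 3, with an Input level of 13.0 CPM and IP levels of 42.3, 17.3 and 23.02 CPM (log2 fold 1.08 ± 1.01; edgeR unadjusted p = 0.295). The delta receptor gene Grid1, whose product binds cerebellin at the synapse, had an Input level of 17.6 CPM and IP levels of 16.6, 11.01 and 42.4 CPM, and only IP 3 was above the Input.

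The metabotropic genes likewise gave no call. Grm5, the group I receptor that couples to phospholipase C, was the most abundant of them per exon length in IP and had an Input level of 225 CPM and levels of 322, 242 and 195 CPM in IP 1, 2 and 3 (log2 fold 0.17 ± 0.44, SE). Grm3, a group II receptor of neurons and astrocytes and the most abundant per exon length in the Input, had an Input level of 91.2 CPM and IP levels of 35.3, 61.4 and 34.1 CPM. All 3 IP libraries lay below the Input (log2 fold -1.07 ± 0.66; edgeR unadjusted p = 0.120). IP 2, the highest of them, also had the highest astrocyte and excitatory marker sums, and the part of those cells in the values of Grm3 was not tested. The share of Grm3 among the metabotropic genes was 43.0% (Input) and 19.3%, 31.3% and 17.95% (IP 1, 2 and 3).

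Grm2, the other group II receptor gene, had an Input level of 36.4 CPM and IP levels of 18.7, 59.8 and 19.5 CPM, again highest in IP 2, and another gene covers 9.60% of its exon bases. The 3 tested group III genes, which encode presynaptic receptors that lower release, had positive log2 folds, that of Grm7 turning to -0.19 without IP 3, to -0.092 when libraries were scaled by their totals and to -0.036 by upper quartiles. Grm8 had an Input level of 14.3 CPM and IP levels of 28.3, 23.95 and 83.0 CPM, above the Input in all 3 (log2 fold 1.65 ± 0.96; edgeR unadjusted p = 0.101). Grm4 had an Input level of 18.5 CPM and IP levels of 20.6, 18.3 and 61.9 CPM, and Grm7 one of 33.5 CPM and IP levels of 41.0, 17.5 and 54.7 CPM. All 3 genes were highest in IP 3, as were Grid1, Grin2d and Cacng5. In all, 16 of the 34 tested genes had their highest IP value there, against 7 in IP 1 and 11 in IP 2. Of all 14636 genes, 5150, 4856 and 4630 were highest in IP 1, 2 and 3.

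Auxiliary subunits held both the highest and the lowest folds of the 36 genes. Shisa9, which encodes the AMPA receptor partner CKAMP44, known to slow recovery from desensitization (Entrez 72555, chromosome 16, 11984113 to 12270902), had an Input level of 121 CPM and levels of 420, 397 and 523 CPM in IP 1, 2 and 3. The 3 IP libraries lay close together (coefficient of variation 15.1%) and all far above the Input. The log2 fold was 1.89 ± 0.44 (SE; 95% interval 0.97 to 2.81), with an unadjusted p of 0.000394 and an adjusted p of 0.0749 by edgeR, just outside the threshold. Over the alternatives its log2 fold ran from 1.61 to 1.96 and its adjusted p from 0.000557 to 0.192. It was called in 5 of 11, among them DESeq2 (adjusted p = 0.00272), a robust prior (0.0389) and the fits without IP 1 (0.000557) and without IP 2 (0.0339). Per exon length Shisa9 ranked 11 of the 36 genes in the Input and 1 in each IP library, with an Input level of 23.1 CPM per kilobase and an IP mean of 85.3 ± 12.8 (SD, n = 3). Its ratio to Gria2 per exon length was 0.479 (Input) and 2.13, 1.74 and 1.96 (IP 1, 2 and 3).

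Cacng5, which encodes the type II transmembrane AMPA receptor regulatory protein (TARP) gamma-5 (Entrez 140723, chromosome 11, minus strand), had the largest fold of the 36. The Input held 75 counts of it, or 4.50 CPM, and levels in IP 1, 2 and 3 were 42.3, 36.5 and 104 CPM. All 3 IP libraries were above the Input, IP 3 most. The log2 fold was 3.75 ± 1.003 (SE; 95% interval 1.65 to 5.85), with an unadjusted p of 0.00139 and an adjusted p of 0.186 by edgeR. It was called in 4 of 11 alternatives, namely DESeq2 (adjusted p = 0.000187), no filter on low counts (0.0420), without IP 1 (0.0122) and without IP 2 (0.0106), and over all of them the adjusted p ran from 0.000187 to 0.698. Its share among the TARP genes was 1.16% (Input) and 14.1%, 7.35% and 19.9% (IP 1, 2 and 3). Cacng7, the other type II TARP gene, had an Input level of 92.2 CPM and IP levels of 85.4, 113 and 169 CPM, so that Cacng5 per Cacng7 by exon length was 0.0310 (Input) and 0.315, 0.205 and 0.390 (IP 1, 2 and 3).

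For Cacng5, the gene with the largest fold, RefSeq (GRCm38.p6) lists 2 starts, and the 250 bases before each are shown to give the sequence next to the starts from which its RNA can come. Capitals mark GC boxes, which read GGGCGG or, on the other strand, CCGCCC in these letters.
Cacng5 start 1, chr11:107915056-107915305, minus strand: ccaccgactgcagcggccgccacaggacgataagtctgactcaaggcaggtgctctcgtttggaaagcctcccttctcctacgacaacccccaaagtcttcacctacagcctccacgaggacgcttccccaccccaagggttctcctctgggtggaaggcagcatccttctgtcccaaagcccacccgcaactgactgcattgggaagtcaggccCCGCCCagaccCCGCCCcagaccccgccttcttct
Cacng5 start 2, chr11:107911363-107911612, minus strand: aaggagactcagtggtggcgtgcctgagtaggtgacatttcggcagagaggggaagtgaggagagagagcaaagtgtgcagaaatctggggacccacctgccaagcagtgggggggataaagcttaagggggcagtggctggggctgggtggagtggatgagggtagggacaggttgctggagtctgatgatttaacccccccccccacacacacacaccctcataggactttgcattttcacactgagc
The window of start 1 is 62% G and C and holds 2 GC boxes close to the start, and that of start 2 is 56.8% G and C and holds 0. A GC box on either strand is found in 32.7% of all 32817 windows of this length in the RefSeq table. The homeodomain core TAATTA, the same on both strands and searched because DLX proteins bind such cores, is in 4.85% of all windows, and the short CRE core TGACG or CGTCA in 17.8%. Neither is in the Cacng5 windows. Gene counts do not tell which start was used.

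The type I TARP genes, whose products deliver AMPA receptors to the synapse, were not called, and their difference from Cacng5 was not tested. Cacng3 (gamma-3), the most abundant auxiliary gene per exon length in the Input, had an Input level of 140 CPM and IP levels of 46.4, 170 and 82.4 CPM, with IP 2 above the Input and the others below. Cacng2, the gene of stargazin, had an Input level of 55.8 CPM and IP levels of 75.5, 62.3 and 42.2 CPM (log2 fold 0.11 ± 0.67, SE). Cacng4 and Cacng8 were rare, with 34 and 57 counts in the Input. Cacng4 had an Input level of 2.04 CPM and IP levels of 5.14, 0.107 and 6.73 CPM (log2 fold 0.97, 95% interval -3.65 to 5.59), an interval that holds the fold of Cacng5. Cacng8 (gamma-8) was lower in each IP library than in the Input, with an Input level of 3.42 CPM and IP levels of 0.697, 1.92 and 1.21 CPM, but its fold had an SE of 2.24.

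The other auxiliary genes had negative log2 folds and did not pass the test, and that of Neto1 turned to 0.13 without IP 2. Gsg1l, whose product restrains AMPA receptor currents (Entrez 269994, chromosome 7, 125878420 to 126082411), had an Input level of 93.2 CPM and levels of 24.7, 48.4 and 30.3 CPM in IP 1, 2 and 3. All 3 IP libraries lay below the Input. The log2 fold was -1.44 ± 0.68 (SE; 95% interval -2.86 to -0.018; edgeR unadjusted p = 0.0474), and it was not called in any of the 11 alternatives. Gsg1l per Shisa9 by exon length was 1.03 (Input) and 0.0785, 0.163 and 0.0773 (IP 1, 2 and 3). The cornichon gene Cnih2, which slows AMPA receptor closing, had an Input level of 63.1 CPM and IP levels of 44.3, 28.7 and 41.2 CPM, below the Input in all 3. Its relative Cnih3 had an Input level of 115 CPM and IP levels of 61.9, 146 and 60.2 CPM, with IP 2 above. Of the NETO proteins, which join kainate receptors, Neto2 was lower in each IP library (135 CPM; 100, 69.2 and 47.7 CPM in IP; log2 fold -0.90 ± 0.57) and Neto1 did not (243 CPM; 299, 136 and 231 CPM). The ratio of Neto2 to Neto1 per exon length was 0.760 (Input) and 0.457, 0.693 and 0.281 (IP 1, 2 and 3).

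Among the IP libraries, 11 of the 34 tested genes were highest in IP 2, a share like that of all genes (4856 of 14636). The 11 were Gria3, Gria4, Grin2a, Grin2b, Grin2c, Grm2, Grm3, Cacng3, Cacng8, Cnih3 and Gsg1l. Slc17a7, the vesicular transporter of excitatory neurons, was also highest there, at 201, 403 and 214 CPM in IP 1, 2 and 3 against 633 CPM in the Input. So were the summed excitatory and astrocyte markers given above and the endothelial ones (an Input sum of 31.4 CPM and IP sums of 124, 471 and 169 CPM). The part of such RNA in the levels of these members was not tested. Lowest in IP 2 were instead Grik1, Grik4, Grin2d, Grin3a, Grid1, Grm4, Grm7, Grm8, Cacng4, Cacng5, Cnih2, Neto1 and Shisa9. The share of all genes that were lowest there was not counted, so the length of this list is no result about the members. Of the members lowest in IP 2, Cnih2 and Neto1 had negative log2 folds and the others positive ones. The summed level of the GABAergic markers was also lowest in IP 2 (4635, 3601 and 4341 CPM in IP 1, 2 and 3). Whether the levels of these members go with that sum was not tested.

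Genes that work with these receptors were read from 5 lists, and 2 of their 77 tested entries passed the threshold (0.458% of all genes did), both higher in IP. Slc17a7, Camk2a, Slc1a2 and Slc1a3 are on these lists and on those of cell type markers. Of 12 genes for assembly and further auxiliary proteins of AMPA receptors 1 rose, Shisa6, a relative of Shisa9 that holds receptors at the synapse. It had an Input level of 26.9 CPM and IP levels of 339, 161 and 359 CPM (log2 fold 3.41 ± 0.60, SE; edgeR adjusted p = 0.00690), and limma-voom did not call it. Of the other Shisa genes on this list, neither was called by edgeR. Shisa8 had 3 counts in the Input and 232 over the IP libraries, which is 29.4 times as much after scaling. The 95% interval of that ratio, 9.93 to 144, covers counting error only and leaves out the spread between IP libraries. With that spread, the log2 fold of Shisa8 was 4.85 ± 2.49 (SE; edgeR unadjusted p = 0.0666). Shisa7 had an Input level of 194 CPM and IP levels of 133, 183 and 188 CPM. Of 15 tested extracellular organizers 1 rose, Elfn1, a postsynaptic protein that binds the presynaptic receptor of Grm7, with an Input level of 45.1 CPM and IP levels of 242, 278 and 332 CPM (log2 fold 2.66 ± 0.51, edgeR adjusted p = 0.0141). Elfn1 was not called by limma-voom. At an unadjusted p under 0.05, 2 of the 15 organizers were higher (3.20% of all genes) and 1 lower (1.23%). Named after their values were seen, the higher ones were Elfn1 and Cbln2 (log2 fold 1.84) and the lower one Nptx1 (-1.37).

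None of 22 tested postsynaptic scaffolds and kinases was called by edgeR, DESeq2 or limma-voom. At an unadjusted p under 0.05, 2 of the 22 were higher (3.20% of all genes) and 2 lower (1.23% of all genes). The most abundant were Camk2a, with an Input level of 2902 CPM and IP levels of 2590, 4976 and 4160 CPM, and the receptor-recycling ATPase Nsf, with 1262 CPM in the Input and IP levels of 1500, 1471 and 1673 CPM. Chosen after their values were seen, the 4 were Shank2 (log2 fold 1.62) and Shank1 (0.90) above and Dlg4, the gene of PSD-95 (-1.05), and Homer1 (-0.99), a link between group I receptors and internal calcium stores, below. Shank2 and Shank1 were called without IP 1. None of 15 genes of metabotropic signalling was called by the 3 tools, with 0 at an unadjusted p under 0.05. Prkcb had an Input level of 2591 CPM and IP levels of 1652, 2016 and 2198 CPM, and Gnao1 one of 1812 CPM and IP levels of 2154, 1987 and 1873 CPM. None of 13 tested genes for the supply and uptake of glutamate and D-serine was called by the 3 tools, with 1 higher (Slc38a1, called without IP 1) and 1 lower (Slc17a7) at an unadjusted p under 0.05. Slc1a2 had an Input level of 2122 CPM and IP levels of 1380, 2457 and 1546 CPM.

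The medians of these lists lay between -0.34 (extracellular organizers) and 0.32 (AMPA receptor assembly). Those of the member classes lay between -0.24 (auxiliary) and 0.86 (NMDA), with 0.041 for AMPA, 0.25 for kainate and 0.17 for metabotropic genes. The quartiles of all tested genes were -0.53 and 0.64.

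**Figure D4:**
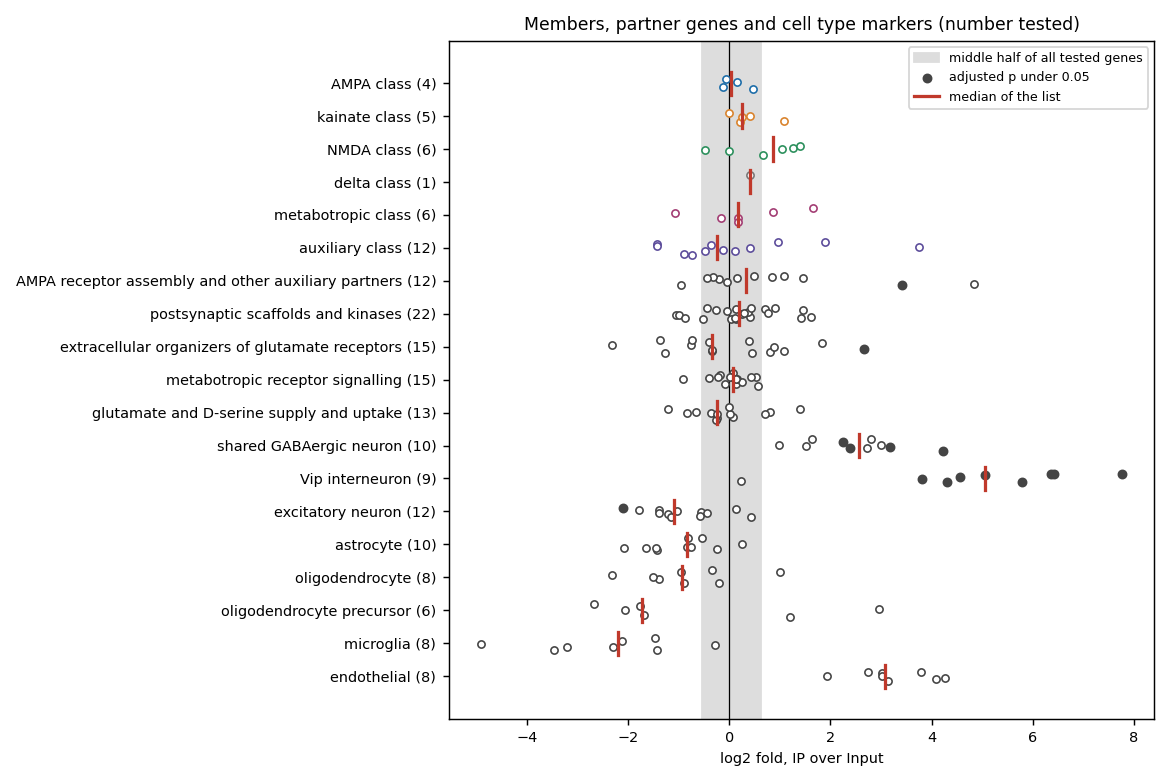
Log2 fold of IP over Input for the member classes, the 5 lists of partner genes and 8 lists of cell type markers, 1 point per tested gene, with red bars at the medians, filled points at an adjusted p under 0.05 and a grey band between the lower and upper quartiles of all tested genes. Medians of the receptor and partner lists lie in or near the band, while GABAergic, Vip interneuron and endothelial markers lie mostly to the right and the excitatory and glial markers mostly to the left.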

How the data were processed

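The deposited values are raw counts of reads for each gene (Entrez identifier and symbol), with a table for each library, per the file headers. The submitters' processing notes name STAR 2.0.0e, HTSeq and mm10, with no roles. The annotation and the handling of strand and shared reads are not given in the sources used here, so reads of overlapping or antisense genes may not have been told apart. Genes without a symbol, 9 in all, held at most 0.0221% of a library's counts.

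In R 4.3.3, edgeR 4.0.16 kept 14636 genes by filterByExpr (minimum count 10), scaled libraries by TMM (1.15 for the Input, 0.932 to 0.974 for IP) and compared IP with Input by its two-sided quasi-likelihood test, with Benjamini-Hochberg adjustment over all genes kept and a threshold of 0.05. Since there is 1 Input, variation was estimated among the IP libraries alone (2 residual and 17.0 prior degrees of freedom) and taken to hold for the Input as well. The SE is the log2 fold over the root of F, and 95% intervals use the t distribution with the test's degrees of freedom. The script was tested on simulated data. No library was a copy of another (chi-square per degree of freedom at least 84.7).

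Exon lengths, positions and shared bases are from GENCODE M21 (GRCm38, the assembly of mm10), and ranks and ratios between members are per kilobase of exon. The most abundant marker and partner genes were picked by mean CPM, without exon length. Values by library are given for members at an adjusted or unadjusted p under 0.05 and for the most abundant per class, and further members are given likewise. Of each partner list the called genes, or else the 2 most abundant, are named, apart from 1 gene that is not reported here. RefSeq upstream windows were listed for 23 of the 36 members. Members and lists were chosen with earlier results of these data known. Alternatives were DESeq2 1.42.0, limma-voom (limma 3.58.1), other scalings and filters, a robust prior, a threshold of 0.01 and leaving out each IP library.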

Additional observations from a re-analysis of the deposited data

How the results depend on the processing

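No paired analysis was possible because there is 1 Input library, so the groups share fewer than 2 replicate numbers. The count of all genes called (67) was 182 with DESeq2, 108 without a filter and 90 to 210 when an IP library was left out. The count of members called (0) was 2 with DESeq2, 2 without a filter, 1 with a robust prior and 0 to 2 when an IP library was left out, with Shisa9 in each of these calls. In the partner lists, limma-voom made 0 calls among AMPA receptor assembly genes and 0 among extracellular organizers. Leaving out an IP library gave 0 to 2 calls among scaffolds and 0 to 1 among supply and uptake genes. The cause of these shifts was not tested.

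Upper-quartile factors moved the median log2 fold of all genes by -0.22, library totals by -0.27, limma-voom by -0.23 and no filter by -0.11. With upper-quartile factors and library totals the medians were -0.042 and -0.098 for all members, 0.031 and -0.022 for kainate, -0.042 and -0.098 for metabotropic and -0.46 and -0.52 for auxiliary genes. Relative to all genes, the median of the members was 0.087 higher in the main analysis and 0.091 and 0.092 higher with these scalings. That difference was 0.25 with limma-voom, 0.20 without a filter, 0.035 to 0.17 when an IP library was left out. Its sign turned, to -0.013, when genes under a mean of 5 CPM were dropped. Without 1 IP library the medians ran from 0.12 to 0.38 for kainate, 0.34 to 1.02 for NMDA and 0.087 to 0.36 for metabotropic genes. Of 30 members with a family share, the share lay above the Input in all IP libraries for 7 and below it in all for 8. The count above (7) was 8 to 12 when an IP library was left out, a change that can only keep or raise it.

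Of 371 pairs of member and alternative 32 changed sign, in 14 of the 34 members and with no call in any of them. The log2 fold turned to -0.13 for Gria4, -0.052 for Grik1, -0.022 for Grik2, -0.10 for Grm5, -0.092 for Grm7 and -0.17 for Cacng2 with library totals, and to -0.072 for Gria4, -0.049 for Grm5, -0.036 for Grm7 and -0.11 for Cacng2 with upper-quartile factors. It turned to 0.0103 for Grik5 and 0.0069 for Grin2a with DESeq2 and to 0.0104 for Grik5 and 0.0067 for Grin2a with RLE factors. It turned to -0.0198 for Gria4 with limma-voom, 0.0015 for Grik5 without a filter and -0.0021 for Cacng2 with a mean of at least 5 CPM. When an IP library was left out the range was -0.27 to 0.075 for Gria3, -0.27 to 0.32 for Gria4, -0.21 to 0.57 for Grik2, -0.024 to 0.77 for Grik3, -0.32 to 0.13 for Grik5, -0.32 to 0.33 for Grin2a and -3.03 to 0.071 for Grin2c, and it was -0.35 to 0.74 for Grid1, -0.93 to 0.11 for Grm2, -0.067 to 0.32 for Grm5, -0.19 to 0.51 for Grm7, -0.11 to 0.30 for Cacng2 and -0.42 to 0.13 for Neto1. Of the tested members, Grin2c, Grin2d, Cacng4 and Cacng8 had the fewest Input counts (34 to 64) and the largest SEs (1.72 to 2.24), and the parts of depth and of the spread between IP libraries in these SEs were not told apart.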
